A study of Homo sapiens with 8 samples.

Results

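The 10 genes described here encode the core subunits of cohesin (SMC1A, SMC3, RAD21, STAG1 and STAG2) and of condensin I (SMC2, SMC4, NCAPD2, NCAPG and NCAPH). They were chosen by name, as the rows of the deposited gene table whose Ensembl identifier pairs with these symbols, and they are 10 of the 60651 genes in that table. The values are ribosome footprints, the short mRNA pieces that translating ribosomes protect from nuclease, in IMR32 cells. IMR32 is an established human neuroblastoma line, labelled wild type. Cells of 4 libraries had been treated for 6 h with CR31B, an analogue of silvestrol that acts on the RNA helicase eIF4A, and 4 control libraries came from cells given DMSO (0.1%). Cells of both groups received cycloheximide before harvest. All 8 libraries come from this 1 line, so differences between donors or tumours are outside the data. The series design calls the 4 libraries of a group biological replicates, and its title puts the comparison in the setting of an eIF4A-controlled translation program in MYCN-driven neuroblastoma.

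Cohesin and condensin are ring-shaped complexes built on a pair of SMC ATPases, long coiled-coil proteins whose heads are joined by a kleisin subunit. Cohesin holds sister chromatids together from S phase to anaphase and folds interphase chromatin into loops. Condensin I compacts chromosomes in mitosis. In cohesin the SMC pair is SMC1A with SMC3, the kleisin is RAD21, and STAG1 or STAG2 binds the kleisin as alternative HEAT-repeat subunits. In condensin I the pair is SMC2 with SMC4, the kleisin is NCAPH, and NCAPD2 and NCAPG are the HEAT-repeat subunits. Rocaglates such as silvestrol clamp eIF4A onto stretches of purines in RNA, so the purine runs of the 5′ untranslated regions (5′ UTRs) are shown before the levels.

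The 5′ UTRs of GENCODE release 29 principal transcripts (build GRCh38) ranged from 126 to 290 nt in the cohesin genes and from 43 to 799 nt in the condensin I genes, against a median of 202 nt over 9827 tested genes with a 5′ UTR of at least 20 nt. The longest unbroken run of A and G was from 3 to 13 nt in cohesin and from 6 to 11 nt in condensin I, where the median of those genes was 8 nt. The runs of at least that median length are printed 5′ to 3′ with the purines in capitals and up to 4 flanking bases, because they are the candidate stretches for this class of compound. RAD21 also has a run of 10 nt, which is not printed.
STAG2: tcttAGAAGAAAGAAGGcaag
SMC4: ccacAGAGAAAAGAAtccc
SMC3: ctttGGGGGAGGGGtcgc
NCAPD2: tactGGGGAGGAGAtttg
STAG1: ttttGGGGGGAAActag
NCAPH: cgccAAGGAAAG
The run of STAG2 was the longest among the members, and 14.2% of the tested 5′ UTRs held one at least as long. At the other end SMC1A had no run above 3 nt, and 99.3% of the tested 5′ UTRs held one of that length or more. The motif AGAGAG occurred in the 5′ UTR of SMC2 and of no other member, against 10.3% of the tested 5′ UTRs, and CGG repeated 4 times occurred in none, against 4.12%. Only the mRNA strand was searched, and AGAGAG lies within the purine runs by its own letters.

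The start sites of the 4 SMC genes are printed because each complex pairs 2 of them and their levels are compared below. The ATG is in capitals, with 12 bases before it and 6 after.
SMC1A: gccgcggccgtcATGgggttc
SMC3: gggcccggaatcATGtacata
SMC2: acagtatcgaaaATGcatatt
SMC4: cctgcagcgaccATGccccgt
The third base before the ATG was a purine in all 10 members and in 86.6% of the tested genes. The base after the ATG was G in 4 members (SMC1A, NCAPD2, NCAPG and NCAPH) and in 53.4% of the tested genes. An ATG upstream of the annotated start was present in the 5′ UTR of 5 members (STAG1, STAG2, SMC2, SMC4 and NCAPD2), and 53.4% of the tested genes had one. These are letters in annotated transcripts, and which transcripts IMR32 cells use was not measured.

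The values are TPM, which divide the reads of a gene by its length and bring every library to the same sum. A library held 17857 to 19758 genes with a value above 0 in CR31B and 19043 to 22270 in DMSO, the DMSO library holding more within each replicate number. The share of protein-coding genes in TPM lay between 51.8% and 61.3%, highest in CR31B replicate 1. TPM does not state depth, but the steps between low values allow it to be estimated. The step of 1 read, in TPM times nt, was 16.2 to 22.9 with CR31B and 10.8 to 18.6 with DMSO. By this estimate the CR31B library was the shallower one within each replicate number. On that basis a member rested on 2163 reads (STAG1, lowest) to 77259 reads (SMC1A, highest) per library, taking the annotated transcript as the length, so counting error is small beside the spread between libraries. Of 8 markers of adrenergic neuroblastoma cells, 7 were tested, and all 8 together summed to between 598 and 770 TPM. HAND2, a transcription factor of this lineage, was called higher in CR31B (log2 fold change 0.58, limma adjusted p of 0.0188, and 0.0580 without DMSO replicate 2). HAND2 exons overlap 867 nt of HAND2-AS1 on the opposite strand, listed at a mean of 117 TPM, and its part in the HAND2 values was not tested. DBH, which makes noradrenaline, had a log2 fold change of -0.43 (limma adjusted p of 0.272). It passed in 1 of 16 alternatives, the replicate block, with a limma adjusted p of 0.0290. Of the 7 tested markers 3 had log2 fold changes above 0 and 4 below, among the latter PHOX2A (-0.38) and CHGA (-0.32), neither of them called. TH, the enzyme that opens catecholamine synthesis, stayed at 1.19 TPM or less in every library. Among 7 markers of other cell types only COL1A1, a fibroblast collagen, reached a mean of 1 TPM, at 5.28 to 12.4 TPM with CR31B and 8.32 to 16.1 TPM with DMSO. The markers PTPRC, COL3A1, GFAP and EPCAM stayed at 0.1 TPM or less and CD3E of T cells and PECAM1 of endothelium were listed at 0 in all 8 libraries.

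None of the 10 members changed past the threshold after 6 h of CR31B. By estimate each rested on at least 2163 reads per library, but whether all of these reads belong to the gene was not tested. In the limma fit over all 11778 genes whose mean reached 1 TPM, 879 genes (7.46%) had an adjusted p under 0.05, and no member was among them. The limma adjusted p of the members ran from 0.205 to 0.870. With an unadjusted limma p under 0.05 there were 2 members (SMC1A and STAG1, both higher in CR31B), against 23.4% of all tested genes. All CR31B libraries lay above all DMSO libraries for 1 member, STAG2, where 8.07% of all tested genes did so, and no member was lower in the same way, where 8.14% of genes were. With the replicate number as a block, which assumes that libraries of the same number are pairs, 1453 genes passed and again no member did. Fold changes below are differences of log2(TPM + 1), which understate the change of low genes. Since TPM brings every library to the same sum, they are relative to the other genes. A change of footprints shared by all genes would not show in them. Footprints follow both the amount of an mRNA and its translation, and mRNA was not measured, so these cannot be told apart, nor can the share of cells in a cycle phase and the level per cell.

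**Figure D1:**
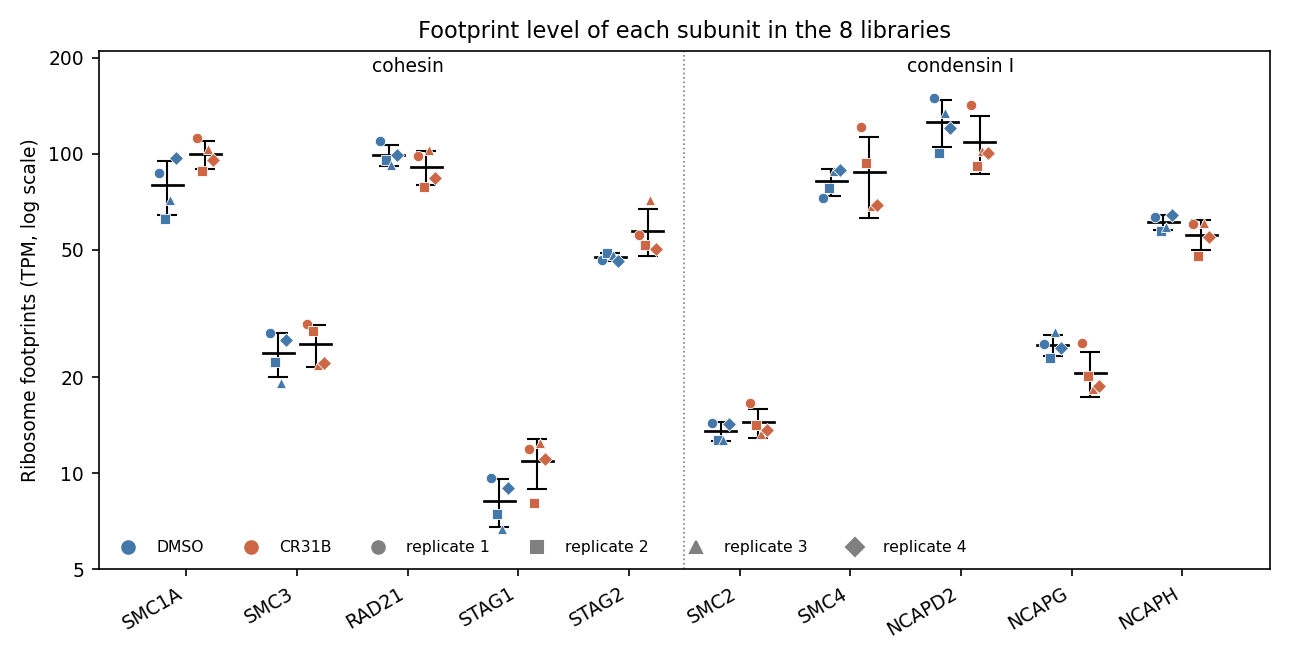
Footprint level of each subunit in TPM (vertical log axis) in 4 DMSO and 4 CR31B libraries. Symbols mark the replicate number, horizontal bars the mean and whiskers the SD (n = 4). NCAPD2 is the highest member in DMSO and STAG1 the lowest, and the CR31B libraries stand clear of the DMSO libraries only for STAG2.

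In cohesin, the SMC pair differed in level but neither gene passed the test. SMC1A (ENSG00000072501.19; GRCh38 chrX:53374149-53422728, minus strand) read 112, 88.1, 103 and 95.9 TPM in replicates 1 to 4 of CR31B, and 86.8, 62.7, 71.5 and 97.3 TPM in those of DMSO. The groups overlapped through DMSO replicate 4, the highest control. Mean levels were 99.8 ± 10.1 and 79.6 ± 15.5 TPM (SD, n = 4 each), which is a log2 fold change of 0.34 (95% interval from 0.0073 up to 0.67, SE 0.15, adjusted p by limma 0.205). Within replicate numbers it was higher in CR31B in 3 of 4 pairs. Its exons overlap the opposite-strand gene RIBC1, which was listed at a mean of 0.135 TPM.

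SMC3 (ENSG00000108055.10; GRCh38 chr10:110567691-110604636, plus strand), the partner ATPase whose acetylation locks cohesin onto sister chromatids, read 29.2, 28.0, 21.8 and 22.2 TPM with CR31B against 27.5, 22.3, 19.2 and 26.0 TPM with DMSO. The groups lay on top of each other. Its log2 fold change was 0.090 (95% interval from -0.24 up to 0.42, SE 0.15, adjusted p by limma 0.770), and without DMSO replicate 3, its lowest library, the estimate was -0.0038. Of the 28-base stretches of its coding sequence, about the length of a footprint, 12.8% also occur in the processed pseudogene SMC3P1. That pseudogene read 9, 8.49, 14.2 and 5.80 TPM with CR31B against 3.73, 5.55, 7.84 and 3.71 TPM with DMSO. How reads of the shared stretches were divided was not tested. In an alternative chosen after seeing the data, the sum of both had a log2 fold change of 0.25 (exact permutation p of 0.0857).

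RAD21 (ENSG00000164754.15), the kleisin that separase cuts at anaphase, read 98.1, 78.8, 102.6 and 84.3 TPM with CR31B against 109, 95.6, 92.3 and 99.2 TPM with DMSO. Its highest CR31B library, replicate 3, stood above 3 of the 4 controls, and the groups overlapped. The log2 fold change was -0.13 (95% interval from -0.39 up to 0.13, SE 0.12, adjusted p by limma 0.566), the only cohesin member with an estimate below 0. A share of 18.7% of its coding 28-base stretches also occurs in a processed pseudogene, which was listed at 0.04 TPM or less in every library. RAD21 exons overlap 518 nt of UTP23 on the opposite strand, at 10.9 ± 2.46 TPM with CR31B and 6.99 ± 0.948 TPM with DMSO (SD, n = 4 each).

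The alternative subunits STAG1 and STAG2 decide which form of cohesin is made, and STAG2 was the more abundant in every library. STAG2 (ENSG00000101972.19; GRCh38 chrX:123960212-124422664, plus strand) read 55.6, 52.0, 71.4 and 50.4 TPM with CR31B against 46.5, 49.1, 48.2 and 46.1 TPM with DMSO. It was the member with the least spread in DMSO relative to its mean, and the only one whose groups did not overlap, though the lowest CR31B library lay just above the highest control. Its log2 fold change was 0.25 (95% interval from -0.022 up to 0.53, SE 0.12, adjusted p by limma 0.253). The exact permutation p was 0.0286, the smallest that 4 against 4 libraries allow, while the limma test over all genes did not call it. Without CR31B replicate 3, the highest library, the log2 fold change was 0.15.

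STAG1 (ENSG00000118007.13; GRCh38 chr3:136336233-136752403, minus strand) read 11.9, 8.08, 12.4 and 11.1 TPM with CR31B against 9.67, 7.44, 6.67 and 8.98 TPM with DMSO. CR31B replicate 2 fell among the controls, and the other 3 treated libraries lay above all controls. The log2 fold change was 0.37, the largest of the 10 members (95% interval from 0.0077 up to 0.73, SE 0.16, adjusted p by limma 0.205), and in 4 of 4 pairs the CR31B library was the higher one. A change of that size or more, in either direction, was estimated for 24.6% of all tested genes. Its exons overlap 1664 nt of PCCB on the opposite strand, which stood at 42.4 ± 8.70 TPM with CR31B, against 37.5 ± 4.75 TPM with DMSO (SD, n = 4 each). Whether counting used strand is not given in the sources used here. No 28-base stretch of the STAG1 or STAG2 coding sequence occurs in a transcript of another gene, so footprints of this length tell these paralogs apart.

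The levels of partner subunits were far from equal. The TPM ratio of SMC1A to SMC3 was 3.36 ± 0.453 in DMSO and 4.01 ± 0.684 in CR31B (SD, n = 4 each), and in 4 of 4 pairs the CR31B library was the higher one with overlapping groups. RAD21 stood at 4.22 ± 0.443 times SMC3 in DMSO and 3.66 ± 0.796 times in CR31B, lower with CR31B in 4 of 4 pairs with overlapping groups. STAG2 stood at 5.94 ± 1.16 times STAG1 in DMSO and at 5.34 ± 0.906 times in CR31B, also lower with CR31B in 4 of 4 pairs with overlap. These ratios depend on the length used. Coding sequence makes up 37.8% of the annotated SMC1A transcript but 88.7% of that of SMC3, and footprints come mainly from coding sequence. The ratios to SMC3 also depend on how reads shared with SMC3P1 were divided, which was not tested. SMC3 and SMC3P1 summed to 28.95 ± 1.91 TPM in DMSO and 34.67 ± 4.554 TPM in CR31B (SD, n = 4 each).

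**Figure D2:**
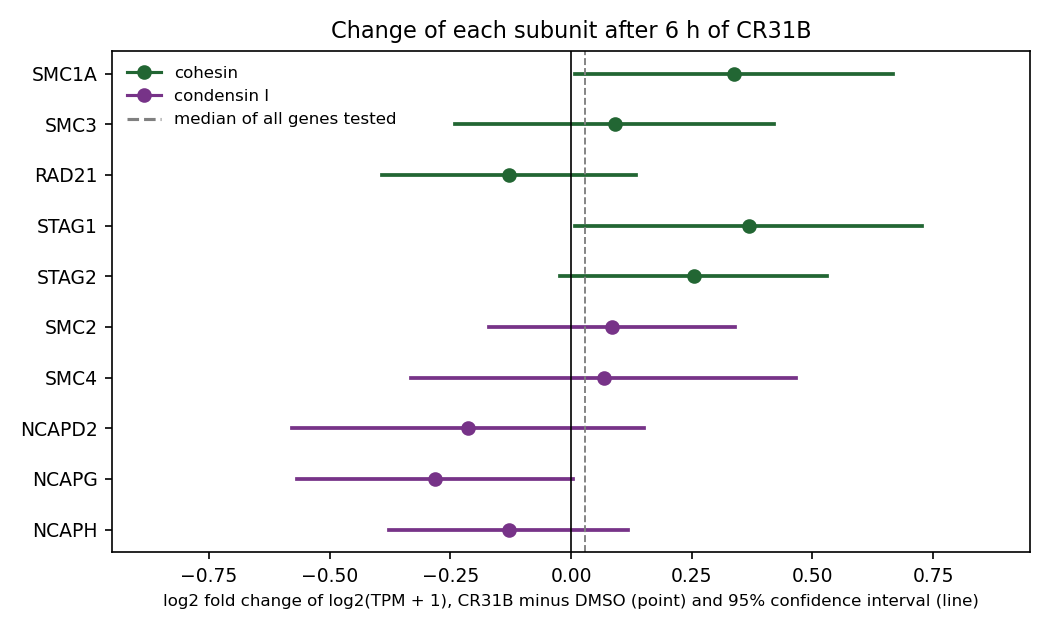
Difference of mean log2(TPM + 1) between CR31B and DMSO for each subunit (point, horizontal axis in log2 units) with its 95% confidence interval from limma (line). The dashed line is the median of all 11778 tested genes, 0.029. The estimates run from -0.28 (NCAPG) to 0.37 (STAG1).

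In condensin I, the SMC pair had estimates near 0 and the 3 other subunits had estimates below 0, none of them past the threshold. SMC2 (ENSG00000136824.19; GRCh38 chr9:104094260-104141417, plus strand) read 16.6, 14.1, 13.2 and 13.7 TPM with CR31B against 14.4, 12.7, 12.8 and 14.3 TPM with DMSO. It had the narrowest range of TPM among the 10 members, and its log2 fold change was 0.084 (95% interval from -0.17 up to 0.34, SE 0.12, adjusted p by limma 0.714).

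SMC4 (ENSG00000113810.16; GRCh38 chr3:160399274-160434962, plus strand), its partner, read 121, 93.4, 68.5 and 69.1 TPM with CR31B against 72.4, 78.0, 88.2 and 88.8 TPM with DMSO. The treated libraries were split, with replicates 1 and 2 above all controls and replicates 3 and 4 below all of them. The log2 fold change of 0.067 (95% interval from -0.33 up to 0.47, SE 0.18, adjusted p by limma 0.870) therefore averages opposite differences, and without CR31B replicate 1 it was -0.098. The ratio of SMC4 to SMC2 was 6.08 ± 0.773 in DMSO and 6.02 ± 1.09 in CR31B (SD, n = 4 each). SMC4 exons overlap TRIM59 (1561 nt) and IFT80 (607 nt) on the opposite strand, of which TRIM59 stood at 3.29 ± 1.34 TPM with CR31B, against 1.17 ± 1.01 TPM with DMSO and IFT80 at 19.8 ± 6.65 and 15.8 ± 3.22 TPM (SD, n = 4 each). Their part in the SMC4 values was not tested.

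NCAPH (ENSG00000121152.10; GRCh38 chr2:96335787-96373845, plus strand), the kleisin of condensin I, read 60.1, 47.8, 60.8 and 54.8 TPM with CR31B against 63.6, 57.2, 59.1 and 64.2 TPM with DMSO. Of the treated libraries, replicates 2 and 4 lay below all controls and the other two among them. Its log2 fold change was -0.13 (95% interval from -0.38 up to 0.12, SE 0.11, adjusted p by limma 0.533).

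NCAPG (ENSG00000109805.10; GRCh38 chr4:17810902-17844862, plus strand), a HEAT-repeat subunit, read 25.5, 20.1, 18.3 and 18.7 TPM with CR31B against 25.5, 22.9, 27.6 and 24.7 TPM with DMSO. In CR31B, 3 libraries lay below all controls, and replicate 1 lay within them. The log2 fold change was -0.28, the lowest of the members (95% interval from -0.57 up to 0.0038, SE 0.13, adjusted p by limma 0.220). A difference of that size or more was estimated for 35.0% of all tested genes. The shared part of its coding sequence was 9.74%, with pseudogenes of which the main one was listed at 0.07 TPM or less, and 1631 nt of its exons overlap LCORL on the opposite strand (11.3 ± 1.84 TPM with CR31B, 10.4 ± 2.23 TPM with DMSO, SD, n = 4 each).

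NCAPD2 (ENSG00000010292.13; GRCh38 chr12:6493356-6531955, plus strand), the other HEAT-repeat subunit, read 142, 91.7, 101.7 and 100.5 TPM with CR31B against 149, 100.3, 134 and 119.98 TPM with DMSO. It was lower in CR31B in every replicate pair, while the groups overlapped. The log2 fold change was -0.21 (95% interval from -0.58 up to 0.15, SE 0.16, adjusted p by limma 0.478), and without CR31B replicate 1 it was -0.35. Its exons overlap 486 nt of MRPL51, a mitochondrial ribosomal protein gene on the opposite strand, which stood at 944 ± 80.6 TPM with CR31B, against 1245 ± 57.7 TPM with DMSO (SD, n = 4 each; log2 fold change -0.40, limma adjusted p of 0.0624). Whether reads of MRPL51 were counted to NCAPD2 was not tested.

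Ordered by mean TPM in DMSO, the members ran NCAPD2 (126), RAD21 (99.1), SMC4 (81.9), SMC1A (79.6), NCAPH (61.0), STAG2 (47.5), NCAPG (25.2), SMC3 (23.7), SMC2 (13.5) and STAG1 (8.19 TPM). Neighbours whose DMSO libraries overlapped were NCAPD2 with RAD21, SMC4 with SMC1A, SMC1A with NCAPH, and NCAPG with SMC3, so these 4 steps are not ordered beyond their spread. Each complex thus held genes of high and of low footprint level. When TPM was rescaled to coding length, an alternative chosen after seeing the data, 5 of the 45 pairs of members changed order and SMC1A came first, at 210.5 ± 40.9 in DMSO (SD, n = 4). The lowest 4 members stayed the same.

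Taken as complexes, cohesin and condensin I had estimates on opposite sides of 0. Of the cohesin members 4 of 5 lay above 0 on the log2 scale (median 0.25), and of the condensin I members 2 of 5 did (median -0.13). Of all tested genes 54.1% were above 0, with a median of 0.029. The summed level of cohesin was 284 ± 29.02 TPM with CR31B, against 258 ± 23.9 TPM with DMSO, and that of condensin I was 288 ± 51.5 and 307.5 ± 24.9 TPM (SD, n = 4 each), with overlapping groups in both. No member passed, so the medians describe the 10 genes and carry no test.

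Within each library, the mean log2(TPM + 1) of the 5 cohesin genes was set against that of the 5 condensin I genes. Cohesin minus condensin I was -0.20, -0.093, 0.20 and 0.011 in CR31B replicates 1 to 4 and -0.21, -0.27, -0.49 and -0.23 in DMSO replicates 1 to 4. Every CR31B library lay above every DMSO library, but CR31B replicate 1 and DMSO replicate 1 were almost level. The largest step was in replicate 3, from the lowest to the highest of all 8 values. The means were -0.021 ± 0.17 and -0.30 ± 0.13 (SD, n = 4 each), a shift of 0.28 log2 units, which was 0.21 without CR31B replicate 3 and also 0.21 without DMSO replicate 3. The ratio of the summed TPM overlapped between the groups, at 0.840 to 1.19 with CR31B against 0.739 to 0.890 with DMSO. The members were named with earlier results of these data known, so this difference is given without a p-value.

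**Figure D3:**
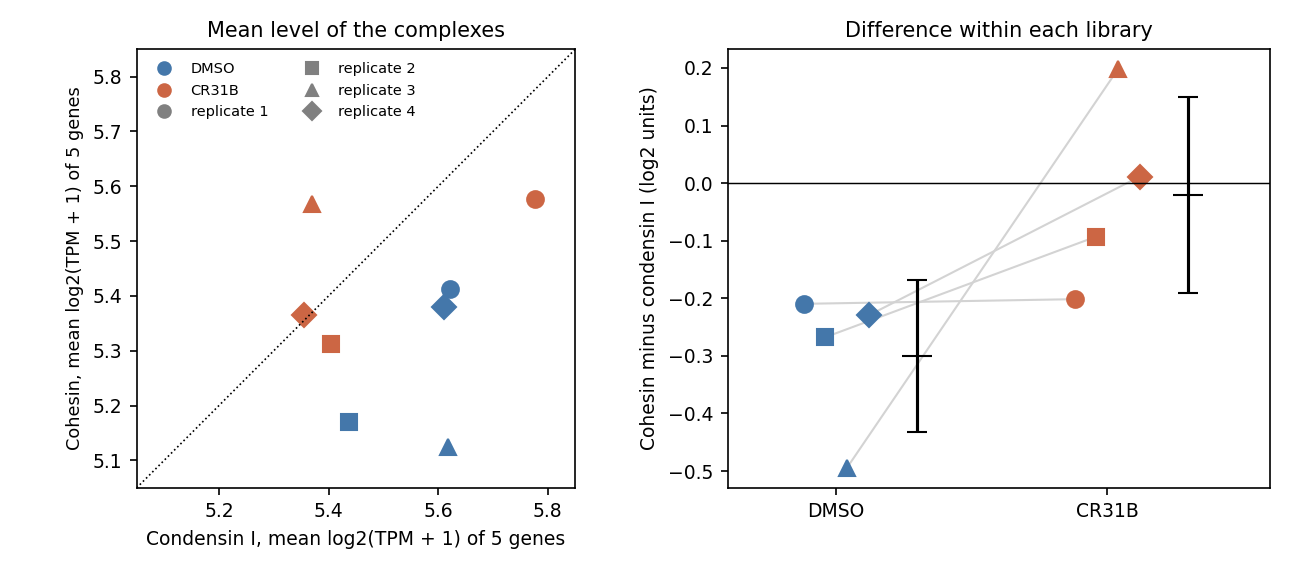
Left, mean log2(TPM + 1) of the 5 cohesin genes against that of the 5 condensin I genes in each library, with the line of equality dotted. Right, the difference of both in each library, grey lines joining libraries with the same replicate number and bars giving mean and SD (n = 4): CR31B libraries run from -0.20 to 0.20 and DMSO libraries from -0.49 to -0.21.

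The mean of condensin I was highest in CR31B replicate 1, at 5.78 against 5.36 to 5.41 in the other treated libraries, and this library also had the largest share of TPM in protein-coding genes, 61.3% against 51.8% to 52.3%. With protein-coding genes alone brought to the full TPM total, condensin I summed to 595, 516, 502 and 494 in CR31B and to 556, 496, 619 and 545.5 in DMSO. On the same scale cohesin summed to 500.0, 492, 596 and 508 in CR31B and to 479, 434, 457 and 485.5 in DMSO. On this scale all treated libraries lay above all controls for cohesin, whereas the groups of condensin I overlapped. In TPM as deposited the cohesin sums overlapped as well. The share of all genes with groups apart on the rescaled values is not given here, so the separation is not shown to be particular to cohesin. How far the protein-coding share sets the level of single members in replicate 1 was not tested.

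Genes that work with these complexes gave 2 calls among 34 listed genes, of which 29 were tested, and both were higher in CR31B. That is 6.90% of those tested, near the 7.46% of all tested genes, of which 3.45% were called higher and 4.02% lower. These 29 genes had a median log2 fold change of 0.040. The called genes were REC8 and MKI67. REC8, which replaces RAD21 as kleisin in meiotic cohesin, read 53.5, 54.0, 56.2 and 46.9 TPM with CR31B against 38.0, 35.2, 36.6 and 34.2 TPM with DMSO. All 4 treated libraries were above all controls, with a log2 fold change of 0.53 (adjusted p by limma 0.0128, SE 0.10). Without DMSO replicate 4 the limma adjusted p of REC8 was 0.0515. REC8 was the only meiotic subunit tested. SMC1B, RAD21L1 and STAG3 were at 0.26 TPM or less in every library, and RAD21L1 was listed at 0 throughout.

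MKI67, the proliferation marker Ki-67 that coats mitotic chromosomes, read 10.8, 8.13, 10.0 and 8.98 TPM with CR31B against 6.48, 5.64, 7.16 and 6.10 TPM with DMSO. Its groups did not overlap, and its log2 fold change was 0.51 (SE 0.13, limma adjusted p of 0.0385). The call did not survive the removal of CR31B replicate 1, 3 or 4 or of DMSO replicate 1, 2 or 4, nor testing with no filter on low values, with limma adjusted p from 0.0756 to 0.111. In those settings the log2 fold change ran from 0.45 to 0.53. The other partners on mitotic chromosomes did not pass: TOP2A had a log2 fold change of 0.099, KIF4A one of -0.23 and TOP2B one of -0.33.

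CTCF, the zinc-finger protein that halts loop-extruding cohesin at its binding sites, missed the threshold narrowly. It read 28.5, 27.7, 33.1 and 24.0 TPM with CR31B against 18.5, 19.3, 21.1 and 22.2 TPM with DMSO, with no overlap and a log2 fold change of 0.46 (adjusted p by limma 0.0502, SE 0.12). Blocking on the replicate number gave a limma adjusted p of 0.0437. CTCF passed in 6 of 16 alternatives, with limma adjusted p from 0.0313 to 0.131 over all of them. The rest of the loading, acetylation and release list did not pass and leaned to neither side. NIPBL, which loads cohesin, had a log2 fold change of 0.020, and its partner MAU2 one of -0.041. The acetyltransferase ESCO2 stood at -0.33, the release factor WAPL at -0.33 and its scaffold PDS5A at -0.35, whereas PDS5B stood at 0.16 and the SMC3 deacetylase HDAC8 at 0.21. CDCA5 (sororin), which opposes WAPL, had a log2 fold change of 0.040, and ESCO1 was below the 1 TPM minimum.

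Condensin II shares SMC2 and SMC4 with condensin I and has its own 3 subunits, none of which passed. NCAPD3 was at 33.3 ± 5.49 TPM with CR31B, against 24.5 ± 4.16 TPM with DMSO (SD, n = 4 each; log2 fold change 0.43, limma adjusted p of 0.135). With TPM rescaled over protein-coding genes its limma adjusted p was 0.0388. This was the only 1 of 16 alternatives in which NCAPD3 passed, and the highest limma adjusted p among them was 0.292. NCAPG2 had a log2 fold change of -0.27 and NCAPH2 one of 0.084. The TPM ratio of the condensin I subunit to its condensin II counterpart was 3.28 ± 0.457 in CR31B and 5.33 ± 1.55 in DMSO for NCAPD2 and NCAPD3, with overlapping groups and lower in CR31B in 4 of 4 pairs. For NCAPH and NCAPH2 it was 1.98 ± 0.188 and 2.297 ± 0.143, with all treated libraries below all controls. For NCAPG and NCAPG2 it was 1.81 ± 0.146 and 1.83 ± 0.278 (SD, n = 4 each). The NCAPH ratio was the only subunit ratio compared here without overlap. Among single tested genes 8.14% had all treated libraries below all controls, and the share among ratios of other genes was not computed. NCAPD3 exons also overlap other genes on the opposite strand, among them JAM3 at a mean of 51.0 TPM.

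None of the 8 tested members of the SMC5/6 complex, the third SMC complex, which acts in DNA repair, passed, and 6 had log2 fold changes above 0, up to 0.28 for SMC6. Protectors and cleavers of cohesin did not pass either. SGO1, which shields centromeric cohesin, had a log2 fold change of -0.25, the separase gene ESPL1 one of -0.15 and PTTG1 (securin), the inhibitor of separase, one of 0.052.

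**Figure D4:**
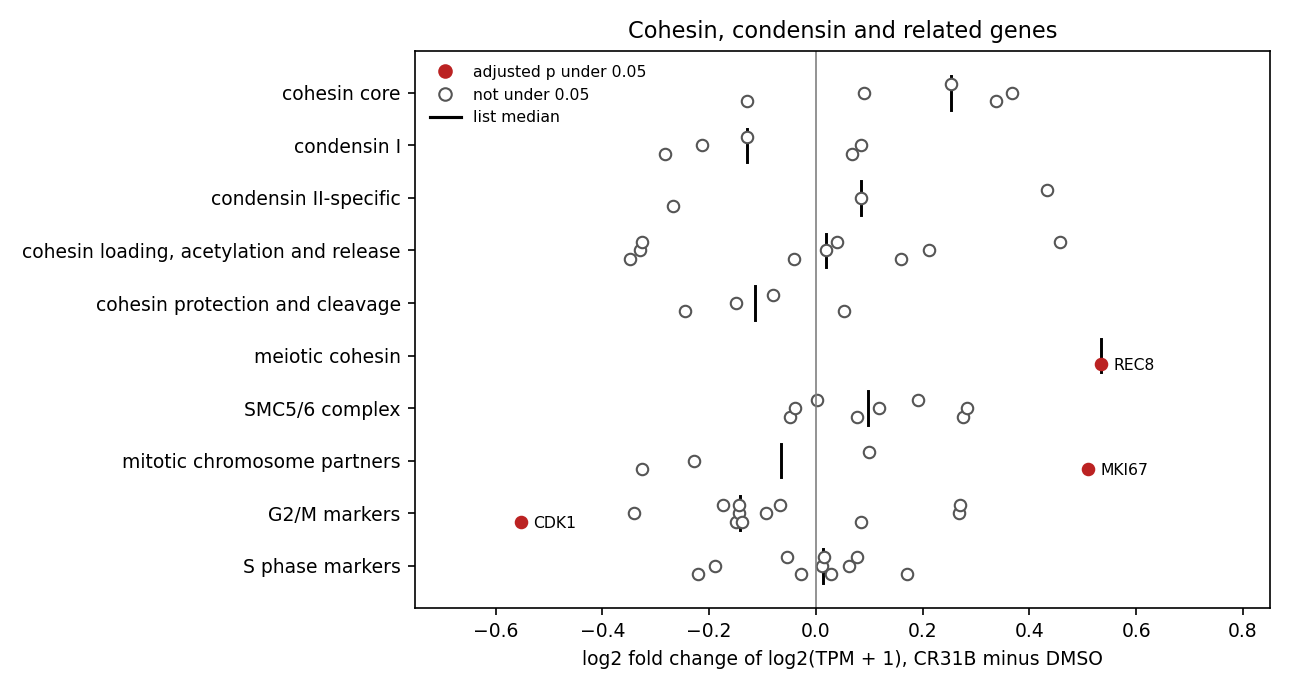
Log2 fold change (CR31B minus DMSO, of log2(TPM + 1)) of each tested gene in the 2 core complexes, the related lists and the cell-cycle lists. Filled points passed a limma adjusted p under 0.05 and black bars are list medians. In the lists drawn, REC8 and MKI67 are the calls above 0, CDK1 is the call below 0, and no cohesin core or condensin I subunit is filled.

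Since cohesion is set up in S phase and condensin I acts in mitosis, 12 G2/M and 10 S phase markers were read beside them. The G2/M markers had a median log2 fold change of -0.14, close to the -0.13 of condensin I, with 9 of 12 below 0. Of these only CDK1, the kinase that drives mitotic entry, passed: it read 34.6, 34.3, 28.1 and 30.9 TPM with CR31B against 52.1, 46.4, 38.6 and 53.1 TPM with DMSO (log2 fold change -0.55, limma adjusted p of 0.0304). The CDK1 call was lost without CR31B replicate 3 or 4 or DMSO replicate 1, 2 or 4, and with no filter on low values (limma adjusted p from 0.0709 to 0.0992). In those settings the log2 fold change ran from -0.56 to -0.49. AURKB, a kinase that helps load condensin I on chromosomes, had a log2 fold change of -0.34 (limma adjusted p of 0.271). It passed in 1 of 16 alternatives, the replicate block, with a limma adjusted p of 0.0413. The G2/M markers with log2 fold changes above 0 were CCNA2 (0.084), BUB1 (0.27) and BUB1B (0.27), and none of them passed. Both BUB1 and BUB1B were higher with CR31B in 4 of 4 pairs. The S phase markers had a median of 0.013 and no call, MCM3 being the farthest from 0 at -0.22. The G2/M markers summed to 1223, 871, 879 and 931 TPM with CR31B against 1275, 958, 966 and 1104 TPM with DMSO. The groups overlapped, but the sum was lower with CR31B in 4 of 4 replicate pairs, as that of condensin I was in 3 of 4. The S phase sum was lower in 2 of 4. The part of the cell cycle in the values of the members was not tested.

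Outside the 10 members, the profiles most like the complexes over the 8 libraries belonged to genes of other functions. Likeness was the Euclidean distance between log2(TPM + 1) values centred on each gene's mean, over 5169 protein-coding genes averaging 10 TPM or more. The members were left out of these genes, so whether a subunit lay nearer was not examined. For the mean of cohesin the nearest were B2M (0.142), CNBP (0.155) and LEO1 (0.165), against a median distance of 0.646. For the mean of condensin I they were LAS1L (0.0910), CAP1 (0.141) and CPNE3 (0.151), against 0.636. None of these 6 genes had a limma adjusted p under 0.05.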

How the data were processed

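Ribosome footprints were measured in 8 libraries of IMR32 cells (4 CR31B, 4 DMSO). Per the labels' protocols, fragments of 28 to 30 nt were selected on a gel and read as 76 bp single reads. The authors deposited 1 table of TPM for 60651 genes. The submitters' processing notes name cutadapt 3.2, Bowtie2 2.3.4.1, STAR 2.7.1a, RSEM 1.2.28 and the build GRCh38 (hg38), without their roles; annotation, strand setting and treatment of multiply mapping reads are not given in the sources used here. Symbols were paired with 60481 identifiers. Gene models and transcript sequences came from GENCODE release 29, which holds 58405 of the identifiers.

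Values were analysed as log2(TPM + 1) with limma 3.58.1 in R 4.3.3 (treatment as the only term, eBayes with a mean-variance trend) for the 11778 genes whose mean reached 1 TPM, with Benjamini-Hochberg adjustment over all of them. TPM are not counts, so no count model was used. The fit was tested on simulated data. Single values were also compared with an exact permutation test, two-sided, which has 70 assignments of libraries. A transcript per gene was chosen by APPRIS rank, support level and coding length. Reads were estimated from the value of 1 read in single-transcript genes. All other steps ran in Python 3.11.15 (pandas 2.3.3, SciPy 1.17.1, NumPy 2.4.6), and plots were drawn with matplotlib 3.10.9.

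The members and the lists were chosen with earlier results of these data known, and list counts and medians stand beside those of all genes without a set test. Named by rule were all members, each called gene of a list, the gene with the largest change of each list and the 3 nearest profiles per complex. Further genes of the lists, such as AURKB, DBH and NIPBL, and genes that overlap a listed gene or share its sequence were named outside this rule. Replicate numbers occur in both groups; libraries with the same number deviated together from their group means (correlations across genes of 0.333, 0.324, 0.301 and 0.105 for numbers 1 to 4). Libraries with different numbers gave -0.206 to 0.134, and CR31B replicate 4 correlated more with DMSO replicate 1 (0.134) than with DMSO replicate 4 (0.105). The numbers were treated as pairs in the alternative fit with a replicate block. This is an assumption, since the labels do not state it and the values for number 4 do not show it clearly. Other alternatives were 2 pseudocounts, 2 filters, 2 scalings, no trend and each library left out.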

Additional observations from a re-analysis of the deposited data

Results flagged for a closer look

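In groups of 4 libraries, a library was singled out where its gap to its nearest neighbour took more of the range of the group than Dixon's 95% critical value. Among the 52 groups examined there were 4 such cases, and about 5% of groups, here 2.6, would be singled out by chance. The groups share genes, so the cases are not independent, and CR31B replicate 1 was singled out for both the mean and the sum of condensin I. CR31B replicate 1 was high in condensin I: its mean log2(TPM + 1) was 5.78 against at most 5.41 in the other treated libraries, and its summed level was 364.8 TPM against at most 267 TPM. DMSO replicate 2 was low in condensin I, with a mean log2(TPM + 1) of 5.44 against at least 5.61 in the other controls. CR31B replicate 3 was high in summed cohesin with protein-coding genes alone brought to the full TPM total, at 596 against at most 508 in the other treated libraries.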

How the results depend on the processing

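Under all 16 alternatives no member passed a limma adjusted p of 0.05; the smallest value was 0.0689, for SMC1A with TPM rescaled over protein-coding genes. Of 159 member values (STAG1 has none at a minimum of 10 TPM), 157 kept their direction and side of the threshold. The 2 that reversed were SMC3 without DMSO replicate 3 (-0.0038) and SMC4 without CR31B replicate 1 (-0.098); leaving out single libraries gave ranges of -0.0038 to 0.16 for SMC3 and -0.098 to 0.17 for SMC4. The count of all called genes was 1453 with the replicate block, 442 with no filter on low values, where more genes were tested, and 404 (without DMSO replicate 4) to 785 with a library left out. Rescaling over protein-coding genes gave 1240 calls, 674 higher and 566 lower, against 406 and 473 with TPM as deposited. With the block, CTCF (adjusted p by limma 0.0437), AURKB (0.0413), DBH (0.0290) and COL1A1 (0.0472) passed among the genes of the lists, and REC8, MKI67, CDK1 and HAND2 kept their calls. Overlapping genes and nearest profiles were not run under the alternatives. The count of related genes called was 1 with no filter, 4 after rescaling over protein-coding genes (with CTCF and NCAPD3) and 0 to 2 with a library left out, 0 without DMSO replicate 4. The cause was not tested where none is named. The shift of cohesin minus condensin I stayed between 0.21 and 0.34 when single libraries were left out. It has no value at a minimum of 10 TPM.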
